A study of Mus musculus with 4 samples.

Results

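Regions of open chromatin called in both EpCAM-negative DN3 libraries, in neither EpCAM-positive DN3 library, and with a summit outside every protein-coding gene were examined in mouse thymus. There were 276 such regions among 14198 intergenic regions (1.94%) and 36224 regions in all. Members were chosen by their peak calls: all peaks of the 4 lists on the 19 autosomes, X or Y that shared 1 bp or more were merged, and the summit of the peak with the highest fold enrichment placed each region inside or outside the RefSeq protein-coding genes of build mm10 (GRCm38). The peak calls, their folds and their q-values therefore selected the members, and these values are given as a description, with no test.

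The measurement was ATAC-seq, in which a transposase cuts and tags accessible DNA, so that a peak marks a stretch of open chromatin. The EpCAM-negative group was 2 libraries of DN3 thymocytes of wild-type (WT) mice that stayed unlabelled in a magnetic separation, and the EpCAM-positive group was 2 libraries of DN3 thymocytes of WT mice retained by an antibody against EpCAM. No treatment, strain or age is given in the labels used here, and nothing in them says that the 2 libraries of a fraction came from separate mice. Spread between libraries may therefore be technical. DN3 thymocytes are CD4- and CD8-negative T cell precursors that rearrange the T cell receptor beta gene and test its product as part of the pre-T cell receptor (pre-TCR), under Notch signals from the thymic epithelium. EpCAM is an epithelial cell adhesion molecule. Open chromatin between genes includes enhancers, insulators, promoters of non-coding genes and promoter-proximal DNA just before a gene's start. An intergenic region can act on a gene other than the nearest one, so the nearest protein-coding gene is used below as an address only.

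The EpCAM-negative lists held 24598 and 25924 peaks and the EpCAM-positive lists 26029 and 29030. The lowest local background shared by at least 50 peaks, a relative measure of depth solved from the deposited values, was 0.29 and 0.286 in the EpCAM-negative libraries, against 0.388 and 0.383 in the EpCAM-positive libraries. Peaks reached down to a −log10 q of 1.32 and 1.34 in the EpCAM-negative lists, and to 2.07 and 2.02 in the EpCAM-positive ones. Of 10 marker genes of DN3 thymocytes, 7 had a peak in the gene or within 1 kb of it in all 4 libraries and none lacked one in every library. Of the genes that mark other cells, Krt5 and Psmb11 of thymic epithelium, Csf1r of myeloid cells and Gata1 of erythroid cells had no peak in any library, whereas Foxn1, Ebf1, Pax5, Itgam and Klf1 had one in all 4. The part of depth and of other cells in the member list was not tested.

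The members that lie at the start of a gene can be shown by sequence. A 300-base RefSeq promoter window (250 bases before the annotated start and 50 after, GRCm38.p6) overlapped 12 of the 269 members on the chromosomes that the table of windows covers. Of these windows, 7 belonged to protein-coding genes (Ptcra, Il5ra, Aldoc, Smtn, Set, Mtcl1 and Acad12) and 5 to long non-coding RNA (lncRNA) genes. The windows below are the 2 protein-coding ones with the fewest CpG dinucleotides and the 2 with the most, because they mark the ends of the range among the members. They are printed 5′ to 3′ on the strand of the gene (minus for each), and capitals mark every match to a motif searched on both strands.
Ptcra (chr17:46763663-46763962): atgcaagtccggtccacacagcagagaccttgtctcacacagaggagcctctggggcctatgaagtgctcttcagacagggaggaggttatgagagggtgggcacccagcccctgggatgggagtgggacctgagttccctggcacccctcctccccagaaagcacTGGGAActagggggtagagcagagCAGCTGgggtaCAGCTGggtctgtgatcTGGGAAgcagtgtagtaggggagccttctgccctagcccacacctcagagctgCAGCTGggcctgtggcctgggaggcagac
Il5ra (chr6:106748988-106749287): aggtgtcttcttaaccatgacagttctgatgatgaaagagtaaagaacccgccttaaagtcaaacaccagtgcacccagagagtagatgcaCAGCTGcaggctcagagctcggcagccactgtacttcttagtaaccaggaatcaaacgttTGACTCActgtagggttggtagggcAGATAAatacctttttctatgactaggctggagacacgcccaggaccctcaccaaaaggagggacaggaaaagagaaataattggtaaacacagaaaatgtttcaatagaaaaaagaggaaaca
Mtcl1 (chr17:66449701-66450000): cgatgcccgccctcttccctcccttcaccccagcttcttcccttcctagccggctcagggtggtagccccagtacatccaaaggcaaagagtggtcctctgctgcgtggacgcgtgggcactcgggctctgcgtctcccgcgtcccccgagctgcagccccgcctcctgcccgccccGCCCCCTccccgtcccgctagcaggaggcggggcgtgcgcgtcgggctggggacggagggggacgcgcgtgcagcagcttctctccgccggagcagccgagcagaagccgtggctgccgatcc
Acad12 (chr5:121618889-121619188): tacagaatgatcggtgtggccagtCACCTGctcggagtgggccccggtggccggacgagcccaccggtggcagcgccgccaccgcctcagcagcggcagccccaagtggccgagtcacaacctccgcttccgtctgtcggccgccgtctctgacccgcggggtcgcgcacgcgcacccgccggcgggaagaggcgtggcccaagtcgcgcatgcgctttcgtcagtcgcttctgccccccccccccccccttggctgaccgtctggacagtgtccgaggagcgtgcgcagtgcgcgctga
Ptcra encodes the invariant pre-TCR alpha chain, and Il5ra the alpha chain of the interleukin-5 receptor. Mtcl1 encodes a microtubule crosslinking protein, and Acad12 a member of the acyl-CoA dehydrogenase family. The Ptcra window held 1 CpG and the Il5ra window 4, against 30 in the Mtcl1 window and 37 in the Acad12 window. The windows of Aldoc, Smtn and Set lay between them, with 8, 11 and 17 CpG. Over the 12 windows the median was 13 CpG and 59% GC, against 7 CpG and 53% GC over 32544 distinct RefSeq windows.

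The search covered 10 motifs, each by its letters. Runx factors were represented by TGTGGT. Tcf1 and Lef1, which act downstream of Notch in early T cells, were represented by CTTTGA. The motif of GATA factors was AGATAA. That of the ETS family was AGGAAGT. For E proteins the search used the E-box CAGCTG and a second form, spelled CAGGTG. The motif shared by the Notch effector RBPJ and by Ikaros was TGGGAA. AP-1 was represented by TGANTCA and STAT factors by TTCNNNGAA. The core of the insulator factor CTCF was AGGGGGC. In the Ptcra window, CAGCTG occurred 3 times and TGGGAA 2 times. The member covered bases 1 to 252 of that window, with the annotated start of transcription at base 251. The last CAGCTG lay past base 252, outside the member. In the Il5ra window, the E-box CAGCTG, the GATA and the AP-1 motifs occurred 1 time each. The member covered bases 1 to 169, and the GATA match lay outside them. The Mtcl1 window held 1 AGGGGGC, inside bases 1 to 210, which its member covered. The Acad12 window held 1 CAGGTG, outside bases 145 to 300, which its member covered. The E-box CAGCTG was found in 2 of the 12 windows and in 16.4% of all promoter windows. TGGGAA was found in 6 of the 12 windows and in 25.4% of all. AGGGGGC was found in 3 of the 12 windows, against 10.7% of all promoter windows. The counts take whole windows, including bases outside the members. These are matches of letters, not measured binding, and 12 windows are too few to compare with the share among all promoters.

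The Ptcra member lay on chromosome 17 at 46763711-46764002, with its summit 96 bp before the gene. Its fold over local background was 7.47 and 8.09 in the EpCAM-negative libraries, and the solved pileup at its summit was 14 and 16. No EpCAM-positive peak overlapped it, but EpCAM-positive replicate 2 had a peak of fold 4.88 starting 27 bp away, just inside the gene. EpCAM-positive replicate 1 had no peak at either place. A second open region, beyond the far end of the gene, was called in all 4 libraries, with folds of 14.9 and 16.6 in the EpCAM-negative libraries and 17.0 and 18.4 in the EpCAM-positive libraries. The Ptcra start was thus called on opposite sides of the annotated start in the EpCAM-negative libraries and in EpCAM-positive replicate 2.

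**Figure D1:**
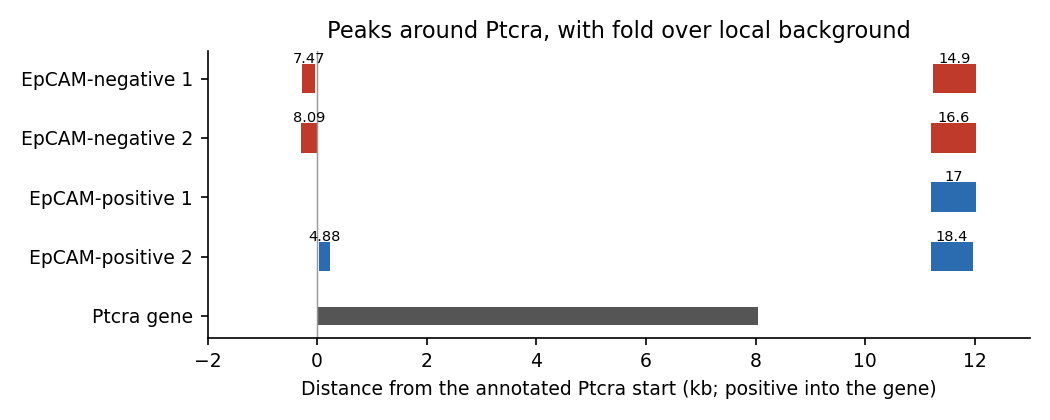
Peaks around Ptcra in each library, with distance from the annotated gene start in kb on the horizontal axis (positive into the gene), 1 row per library and the fold of each peak above its bar. The upstream peaks of the EpCAM-negative libraries (7.47 and 8.09) stand beside a peak of EpCAM-positive replicate 2 (4.88) just inside the gene, and the peak at the far right was called in all 4 libraries.

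Other members lay as close to a gene. In all, 12 members had a summit within 1 kb of a protein-coding gene, and the nearest 10 were those at Mtcl1 (21 bp), Man2a2 (38 bp), Set (78 bp), Cnot6l (80 bp), Acad12 (82 bp), Aldoc (82 bp), Ptcra (96 bp), Smtn (129 bp), Il5ra (257 bp) and Thbs1 (393 bp). Man2a2 encodes a Golgi alpha-mannosidase, Set a histone chaperone and inhibitor of a phosphatase, and Cnot6l a catalytic subunit of the deadenylase complex that shortens mRNA tails. Aldoc encodes aldolase C of glycolysis, Smtn the smooth muscle protein smoothelin, and Thbs1 thrombospondin 1 of the extracellular matrix. The Man2a2 member had folds of only 4.40 and 3.66 although its pileup was 26 and 17. The Cnot6l member likewise had folds of 4.05 and 4.53 with a pileup of 27 and 28. These members had high pileup on a high local background, and the nearest EpCAM-positive peaks lay 633 bp away at Man2a2 and 744 bp away at Cnot6l. The Il5ra member was of the other kind, with folds of 8.29 and 6.62, a pileup of 11 and 8, and no EpCAM-positive peak within 19360 bp.

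Across the 276 members, the fold had a lowest value of 3.58, a median of 5.51 and a highest value of 10.8 in EpCAM-negative replicate 1. In replicate 2 it had a lowest value of 3.66, a median of 5.70 and a highest value of 10.7. The fold was higher in replicate 2 for 153 members, and the 2 folds were within 1.5 times of each other for 252. The solved pileup ran from 4 to 32 in replicate 1 and from 4 to 28 in replicate 2, with a median of 8 in both. Only 64 members had a pileup of at least 10 in both libraries. The members were weak peaks by the highest fold among the libraries that called a region. Its median was 6.20, against 6.12 for the 645 EpCAM-positive-only intergenic regions and 6.01 for the 1083 called in exactly 1 library of each fraction. It was 11.2 for the 5923 called in all 4 libraries, where the highest is of 4 folds rather than 2. The median of the highest pileup, not scaled for depth, was 9, 12, 10 and 34 in the same order of sets. The 2 summits of a member lay a median of 54 bp apart, and within 50 bp of each other in 134 members (48.6%). That share was 45.0% in the EpCAM-positive-only set and 59.1% in the set called in all 4.

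**Figure D2:**
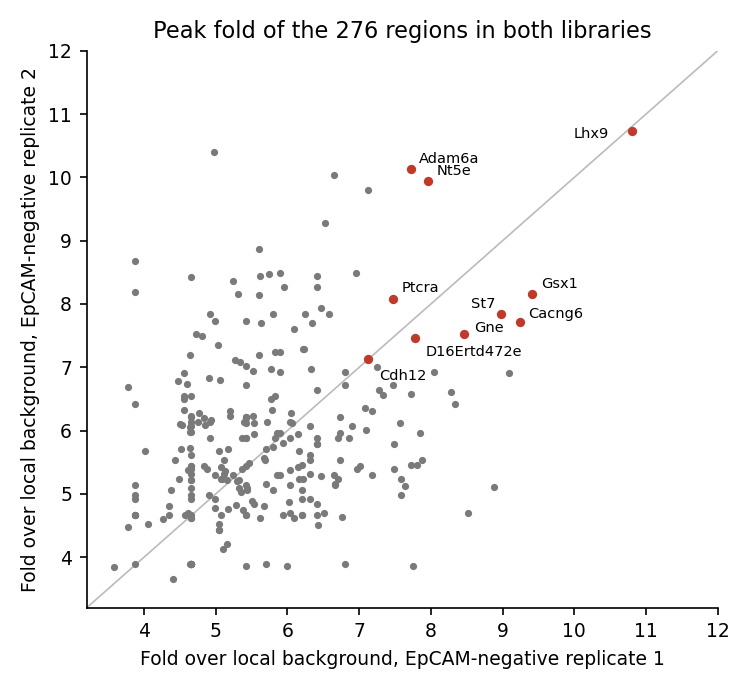
Fold over local background of each of the 276 members in EpCAM-negative replicate 1 (horizontal axis) and replicate 2 (vertical axis), with the line of equal fold. The 10 members with the highest lower fold are named by their nearest gene, and the Lhx9 member stands alone at 10.8 and 10.7.

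The members just inside the selection were those near Eya1, Pdp1 and Arl4c, each with a −log10 q of 2.39 in EpCAM-negative replicate 2 and of 4.97, 9.24 and 5.86 in replicate 1. Just outside were regions near Smarca2, D630045J12Rik and Tcf7l1. Each was called in both EpCAM-negative libraries and in 1 EpCAM-positive library, whose −log10 q was 2.63 at Smarca2, 2.87 at D630045J12Rik and 2.96 at Tcf7l1. All 276 members had a −log10 q in both EpCAM-negative libraries above the lowest value that the EpCAM-positive lists hold. The lowest pileup, however, was 5 in both EpCAM-positive lists, whereas members reached down to 4. The q-values thus do not show that every member would have been called in an EpCAM-positive list.

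The 10 members that ranked highest by the lower of their 2 folds had pileups between 9 and 19. First was the member near Lhx9, which encodes a LIM homeobox transcription factor of gonad and limb development. It lay at chr1:138785945-138786253, 39030 bp beyond the end of the gene, with folds of 10.8 and 10.7, a pileup of 19 and 17, and no EpCAM-positive peak within 36196 bp. The second, near the homeobox gene Gsx1, lay inside the lncRNA gene Gm34994 at chr5:147159274-147159657, with folds of 9.41 and 8.16 and a pileup of 12 in both libraries. The third lay at chr9:88273326-88273619, 54106 bp upstream of Nt5e, which encodes CD73, the ectoenzyme that makes adenosine from AMP at the cell surface. Its folds were 7.97 and 9.94 and its pileup 10 and 14. These 3 members had similar folds in both EpCAM-negative libraries, and their nearest EpCAM-positive peak was at least 29007 bp away.

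The next members in rank differed in how near an EpCAM-positive peak lay. St7 (folds of 8.97 and 7.84), Cacng6 (9.24 and 7.71), which encodes a calcium channel gamma subunit, and Gne (8.45 and 7.53), which encodes the first enzyme of sialic acid synthesis, each had an EpCAM-positive peak within 5233 to 6063 bp. The member near D16Ertd472e (7.78 and 7.47) had a peak of EpCAM-positive replicate 1 only 118 bp away. The member near Cdh12 (7.13 in both), which encodes a cadherin of neurons, lay 591286 bp from that gene and 207151 bp from any EpCAM-positive peak. The fifth in rank, near Adam6a, lay 305079 bp from any EpCAM-positive peak. Of the 10, 8 lay within 100 kb of their gene and 2 had an EpCAM-positive peak within 500 bp.

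**Figure D3:**
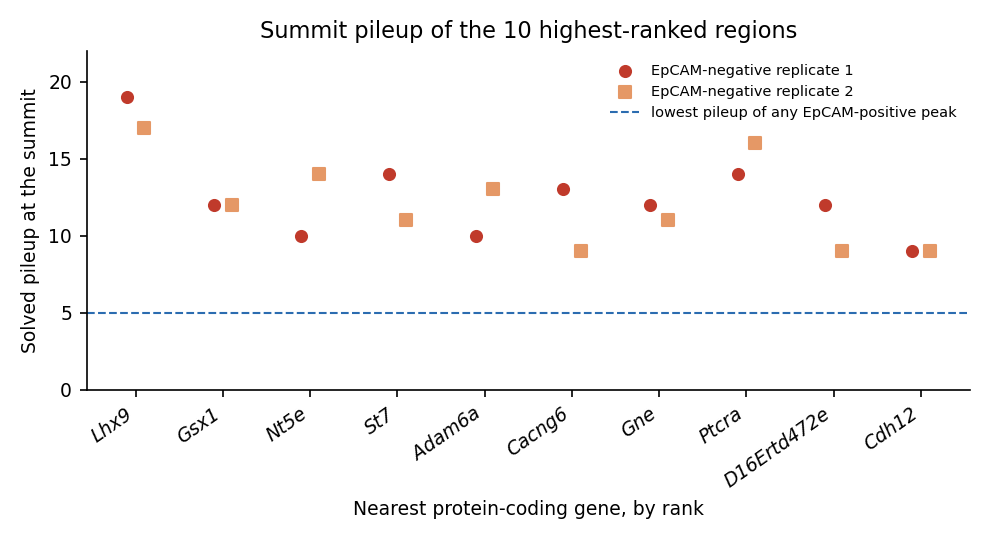
Solved pileup at the summit in EpCAM-negative replicates 1 and 2 for the 10 members with the highest lower fold, named by their nearest gene. The dashed line is the lowest pileup of any EpCAM-positive peak (5), and no pileup is scaled for depth. Values run from 9 to 19, with the Lhx9 member highest at 19 and 17.

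Lists of genes of the DN3 stage and of neighbouring stages and cell types were used to describe the nearest genes. Of 798 intergenic regions whose nearest gene was in any of the 18 lists, 25 were members (3.13%), beside 1.94% among all intergenic regions. The median of the lower fold was 5.11 in these 25 and 5.13 in all 276, and their median distance from the gene was 54106 bp, against 28390 bp for all. The share among single lists ran from 0 to 12.5%, on as few as 6 regions.

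The list of T lineage transcription factors had the most intergenic regions, 226, and the most members, 10 (4.42%, beside 1.94% of all intergenic regions). Of the 226, 7 were EpCAM-positive-only, beside 4.54% of all intergenic regions. The member nearest to Ets1, an ETS-family factor of lymphocytes, had folds of 7.13 and 9.80, a pileup of 9 and 14, and lay 303101 bp from the gene inside the lncRNA gene Gm27166. The Ikzf1 member, at the gene of Ikaros, had folds of 5.24 and 5.30, and a peak of EpCAM-positive replicate 2 began 10 bp away. The pileup of that peak, not scaled for depth, was 16, against 10 and 8 in the EpCAM-negative libraries. Ikzf2, which encodes Helios, had a member with folds of 6.20 and 5.07 lying 77073 bp from the gene. Satb1 encodes a chromatin organizer of thymocytes, and its member had folds of 5.33 and 5.23 at 229080 bp. Id2 and Id3 encode inhibitors of E proteins, the helix-loop-helix factors that bind E-boxes. Id2 had 2 members only 19 bp apart, about 145685 bp upstream, with folds of 5.11 and 5.54 in the first and 5.04 and 4.43 in the second. The Id3 member lay 16119 bp upstream, with folds of 4.80 and 7.49. Patz1, Sox4 and Zeb2 each had 1 member, with folds between 4.02 and 6.20.

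The next lists had small counts, which were not tested, beside a share of members of 1.94% among all intergenic regions. The Notch list had 3 members in 48 intergenic regions, at Ptcra, Maml2 and Myc. Maml2 encodes a coactivator of Notch, and its member had folds of 4.65 and 3.89 and a pileup of 5 and 4, close to the weakest listed. The member nearest to Myc, a growth-promoting factor, lay 834598 bp from it, with folds of 5.42 and 4.66. Among 103 regions nearest to genes of pre-TCR and TCR signals, 4 were members, at Ptcra, Lcp2, Cd69 and Fyn. Lcp2 encodes the adaptor SLP-76, and its member lay 1074 bp beyond the gene end with folds of 6.52 and 9.28. Cd69, an early activation antigen, had a member with folds of 5.90 and 5.96 at 11106 bp. The member near Fyn, a Src-family kinase, had folds of 5.61 and 4.63 at 77848 bp. The V(D)J recombination list had 1 member in 8 regions, 941 bp beyond the end of Rag1, which encodes a subunit of the recombinase, and its folds of 5.70 and 3.89 rested on a pileup of 7 and 4.

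Genes of homing, adhesion and earlier or later stages had few members each. The adhesion and homing list had 4 in 78 regions. One lay 4123 bp upstream of Ccr9, the receptor for the thymic chemokine CCL25, with folds of 5.95 and 8.27 and a pileup of 16 and 22. Another lay near Cd44, a hyaluronan receptor of early precursors, with folds of 5.53 and 5.94. The member near Itga4, which encodes integrin alpha 4, had folds of 4.65 and 5.62 and a peak of EpCAM-positive replicate 1 only 23 bp away. The progenitor list had 3 members in 50 regions, at Cd44, Gfi1b and Sox4. Nt5e and Id3 were the 2 members of the gamma-delta list in 18 regions. Eomes, a T-box factor of memory T and natural killer cells, had a member with folds of 7.73 and 6.58 lying 81518 bp upstream, and with the Id2 pair made 3 members in the 40 regions of the natural killer list. Cdk6 (folds of 4.83 and 6.19) and Myc were the 2 members in 59 regions of the cell cycle list. Itgam (5.52 and 6.94), which encodes CD11b, was the 1 member in 29 regions of the myeloid list. No region of the cytokine receptor (36), apoptosis (36), immediate early and stress (61), thymic epithelial (19), B cell (6) or erythroid (6) list was a member. Among all intergenic regions the share of members was 1.94%, and lists this small cannot show a lack of members. The counts of single lists were not tested.

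The antigen receptor loci held 5 members. In the immunoglobulin heavy chain (Igh) locus, 4 of 57 intergenic regions were members (7.02%), beside 1.94% of all intergenic regions. None of the 57 was EpCAM-positive-only, beside 4.54% of all intergenic regions, and 16 were called in all 4 libraries. These counts are small and were not tested. The strongest of the 4 members, at chr12:113994305-113994708, had folds of 7.72 and 10.1 and a pileup of 10 and 13. The other three had folds between 3.89 and 7.02 and pileups of 4 to 9. Igh is rearranged in B cells, and partial rearrangement in developing T cells is known. The nearest protein-coding genes, Adam6a for 3 of the 4 and Zfp386 for the fourth, serve only as landmarks in this locus. The T cell receptor alpha and delta locus held 1 member in 41 intergenic regions, at chr14:53599346-53599628, with folds of 5.43 and 5.88. The T cell receptor beta locus (18 intergenic regions), the gamma locus (7) and the Igk locus (4) held none.

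The 276 members had 264 different nearest genes, and 253 of these had a single member. Adam6a had 3 members, and 10 genes had 2 each. Besides Id2, the closest pair was near Prex1, which encodes an exchange factor for Rac, with 45 bp between the members. The Galnt2 pair lay 1480 bp apart and the Klhl25 pair 12977 bp apart. Since the members of the Id2 and Prex1 pairs are separated by less than their own width, each pair may be joined under a wider merge. A peak of EpCAM-positive replicate 2 lay 51 bp from the second Prex1 member. Merging across 100 bp therefore takes in that peak as well, and the Prex1 region is then no longer EpCAM-negative-only. Widths ran from 224 to 597 bp with a median of 324 bp, and the widest members were near LOC108167368 (597 bp), Agps (577 bp) and Slc22a5 (574 bp). Of the 233 members whose side of the gene is known, 146 lay upstream and 87 downstream. The share upstream among other intergenic regions was not computed. By chromosome, the highest share was on chromosome 1, with 32 members in 941 intergenic regions (3.40%, 95% Clopper-Pearson interval 2.34 to 4.77%). The lowest apart from Y was on chromosome 16, with 4 in 495 (0.808%, 0.221 to 2.06%). Over all intergenic regions it was 1.94%. These extremes were picked from all chromosomes and were not tested. Chromosome Y had none in 19.

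Absence of an EpCAM-positive call did not always mean an isolated region. An EpCAM-positive peak lay within 100 bp of 16 members, within 500 bp of 26 and within 1 kb of 40. The closest cases were near Nab2 (3 bp) and St3gal4 (7 bp). At Nab2, which encodes a corepressor of EGR factors, the pileup was 18 and 17 in the EpCAM-negative libraries and 24 in the adjoining peak of EpCAM-positive replicate 2. At St3gal4, a sialyltransferase gene, it was 17 and 23, against 28. At the other end, 145 members lay more than 10 kb from any EpCAM-positive peak and 50 more than 50 kb, and the median distance was 10759 bp. Leaving out members with an EpCAM-positive peak within 500 bp gave 250 members.

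**Figure D4:**
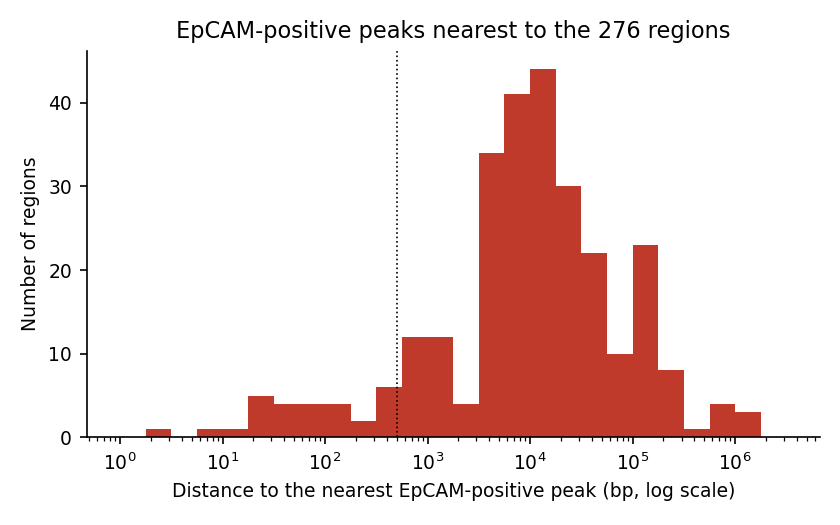
Distance from each of the 276 members to the nearest EpCAM-positive peak, on a log10 axis in bp, as a histogram of numbers of members, with a dotted line at 500 bp. The median is 10759 bp, and 26 members lie within 500 bp of such a peak.

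The members lay far from genes. Their median distance from the nearest protein-coding gene was 28390 bp, against 10919 bp for the EpCAM-positive-only intergenic regions, 18881 bp for those called in 1 library of each fraction and 5669 bp for those called in all 4 libraries. The farthest 3 lay 1111161 bp from Adam6a and 882084 bp from Zfp386, both in the Igh locus, and 1057158 bp from 1700009N14Rik. Beyond 50 kb lay 97 of 276 members (35.1%, interval 29.5 to 41.1%), against 117 of 645 EpCAM-positive-only regions (18.1%, 15.2 to 21.3%). Fisher's exact test, two-sided and adjusted by Benjamini-Hochberg over 9 tests, gave an odds ratio of 2.45 and an adjusted p of 2.75e-07. Without EpCAM-positive replicate 1 this odds ratio was 1.35, in the same direction and past the threshold. Against the 982 of 5923 regions called in all 4 libraries (16.6%), the odds ratio was 2.73 with an adjusted p of 3.74e-12 in the same test. With regions counted only outside gene spans extended by 1 kb, the shares were 36.7% and 26.8%, and this odds ratio was 1.59 (adjusted exact p = 0.00226). Against the regions called in 1 library of each fraction, which were about as weak, the share beyond 50 kb was 35.1% and 28.8% (312 of 1083), the odds ratio was 1.34, and the adjusted Fisher's exact p of 0.0846 missed the 0.05 threshold. In the same exact test, this last odds ratio was 1.36 without EpCAM-negative replicate 1 (adjusted p = 0.000304) and 1.67 without EpCAM-positive replicate 2 (adjusted p = 5.53e-06), both past the threshold. It was 1.19 without EpCAM-negative replicate 2 (adjusted exact p = 0.134) and 1.29 without EpCAM-positive replicate 1 (adjusted exact p = 0.0677), neither past it. Leaving out a library also redefines the sets. Without an EpCAM-negative library a member needs 1 call, whereas a region called in 1 library of each fraction still needs 2. Without an EpCAM-positive library an EpCAM-positive-only region needs 1 call, whereas a member needs 2. The odds ratios with 1 library left out therefore compare other sets than the main ones. All these p-values take regions, not mice, as units, and describe the lists.

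**Figure D5:**
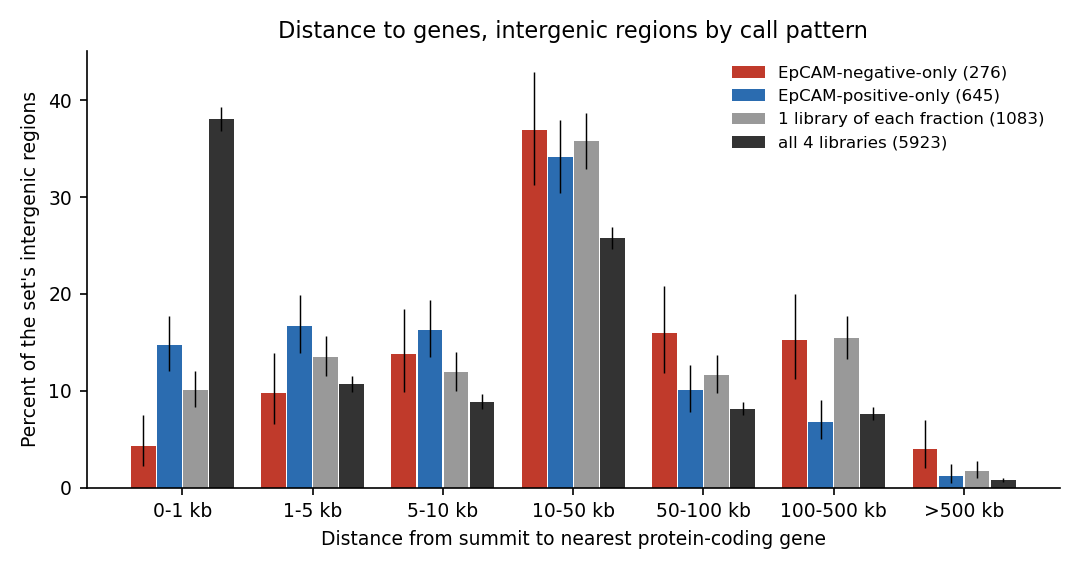
Share of regions in each range of distance from the summit to the nearest protein-coding gene, in percent, for the 276 members and for the 3 other intergenic sets, with 95% Clopper-Pearson intervals as bars. The members have 4.35% within 1 kb and 35.1% beyond 50 kb, whereas the regions called in all 4 libraries have 38.1% within 1 kb and 16.6% beyond 50 kb.

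Distance from genes was also taken per library, with 1 value for each. Of all intergenic peaks, 20.3 ± 1.01% lay beyond 50 kb in the EpCAM-negative libraries and 19.1 ± 1.30% in the EpCAM-positive libraries (SD, n = 2 each; exact permutation p = 0.667, two-sided). Of intergenic regions called in 1 library alone, 29.9 and 35.6% lay beyond 50 kb in the EpCAM-negative libraries, against 19.6 and 27.8% in the EpCAM-positive libraries. The exact permutation p was 0.333, the smallest that 2 libraries against 2 can give. Both EpCAM-negative libraries were higher on this measure than both EpCAM-positive libraries.

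An all-4 region, one called in all 4 libraries, lay within 10 kb of 64 members (23.2%), against 33.3% of EpCAM-positive-only regions (odds ratio 0.604, adjusted Fisher's exact p = 0.00672) and 30.3% of the other all-4 intergenic regions (odds ratio 0.693, adjusted p = 0.0240). It was 25.7% in regions called in 1 library of each fraction (odds ratio 0.874, adjusted Fisher's exact p = 0.562). Without EpCAM-positive replicate 1 the first 2 differences were no longer past the threshold, with odds ratios of 0.879 and 0.828, and without EpCAM-negative replicate 1 the third passed it, at 0.644. The 64 members with a summit inside a non-coding RefSeq gene (23.2%) were mostly in lncRNA genes (54). That share was 23.7% in the EpCAM-positive-only set (odds ratio 0.971), 20.6% in the set called in all 4 (1.16) and 23.2% in the set called in 1 library of each fraction (1.00), and the adjusted Fisher's exact p-values were 1, 0.485 and 1. Without EpCAM-positive replicate 2 the odds ratio against the set called in all 4 was 1.24 and passed the threshold.

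The count itself depended on the libraries and on peak number. EpCAM-positive-only intergenic regions numbered 645, or 4.54% of intergenic regions, beside 276 members. With lists limited to equal length, the members numbered 359 and the EpCAM-positive-only regions 436. Regions called in 1 library of each fraction, which also need 2 calls, numbered 184 to 427 for each of the 4 pairings. Leaving out EpCAM-negative replicate 1 gave 1532 members, EpCAM-negative replicate 2 gave 1119, EpCAM-positive replicate 1 gave 510 and EpCAM-positive replicate 2 gave 668. Over the whole genome, 623 of 36224 regions were EpCAM-negative-only (1.72%), and 44.3% of them were intergenic, against 40.5% of the 1594 EpCAM-positive-only regions.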

How the data were processed

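Open chromatin was measured by ATAC-seq in 4 libraries. Per the submitters' processing notes, the tools included Bowtie2, MACS3, Picard and Trimmomatic, with build mm10 (GRCm38). For their versions, settings, duplicate handling and any shift of reads for the transposase, the sources used here give nothing. The deposited files are 1 narrow-peak list per library, called per library. In the deposited lists the authors' caller gives a score (not used here), a fold ratio over local background, and the −log10 of the p-value and of the q-value.

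Depth as a number of reads is unknown. From the deposited fold and −log10 p, each peak's pileup and local background were computed (Poisson tail, tolerance 0.01), which worked for 99.9885% to 99.9959% of peaks per list. The pileup may be one of fragments or of reads. The solver and the region merge were tested on simulated data.

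Peaks were merged at an overlap of 1 bp. Distances run from the summit to the nearest of 21883 RefSeq protein-coding gene spans. No genome sequence was used, so members outside promoter windows are given by position. For shares, a two-sided Fisher's exact test was used with Clopper-Pearson intervals at 95%, which cover counting error only, and Benjamini-Hochberg adjustment over 9 tests (threshold 0.05). Python 3.11.15, SciPy 1.17.1 and pandas 2.3.3 were used.

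Named members were the 10 highest by lower fold, the 10 nearest to a gene within 1 kb, those near list genes (at most 4 per list by lower fold), those in antigen receptor loci, genes with several members, and the 3 farthest and widest. Nab2 and St3gal4, and the fifth and later members of a list, were named after their values were seen. The members and the gene lists were chosen with earlier results of these data known. One marker gene is not reported here. The alternatives were wider merges, stricter q-values, equal list length, other gene spans, each library left out, and the replicate number as a block.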

Additional observations from a re-analysis of the deposited data

How the results depend on the processing

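The count of members, 2 shares and the 9 odds ratios were recomputed under up to 14 alternatives; list counts, receptor loci, chromosomes, motifs and fold summaries were not. Of 117 recomputed odds ratios, 91 kept their direction and their side of the threshold. The higher share of members beyond 50 kb against the EpCAM-positive-only regions and against the regions called in all 4 libraries kept its direction and passed the threshold under all 14 alternatives. Among these, a −log10 q floor at the highest of the lists' lowest values left all 4 sets the same in size. Its odds ratios, counted in the 117, therefore repeated the main ones. For distance against regions called in 1 library of each fraction, the odds ratio was 1.39 (adjusted exact p = 0.0300) with lists of equal length. It ran from 1.19 to 1.67 with 1 library left out. The lowest values were 1.15 beyond 100 kb (19.2% against 17.2%, adjusted Fisher's exact p = 0.562) and 1.16 at a −log10 q of at least 5 (adjusted Fisher's exact p = 0.855). At a −log10 q of at least 5 the members numbered 177 (1.57% of intergenic regions), and the share was 2.81% with lists of equal length and 2.40% outside gene spans extended by 1 kb. With 1 library left out the count ran from 510 to 1532 and the share from 3.76 to 11.4%, since fewer calls, or fewer absences, are then required. All odds ratios with 1 library left out compare sets redefined in the same way.

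For neighbours called in all 4 libraries, the odds ratios against EpCAM-positive-only regions lost the threshold at 0.687 and 0.741 (merging across 100 and 500 bp), 0.731 (no EpCAM-positive peak within 500 bp) and 0.956 (−log10 q of at least 5). Against regions called in all 4 they lost it at 0.715 and 0.776 (the same merges) and 0.994 (−log10 q of at least 5). Against regions called in 1 library of each fraction the direction turned at 1.03 (merging across 500 bp) and 1.01 (−log10 q of at least 5). With 1 library left out these odds ratios ran from 0.519 to 0.879, 0.595 to 0.828 and 0.644 to 0.873 for the 3 sets in that order.

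For summits inside non-coding genes, the direction turned against EpCAM-positive-only regions at 1.08 (equal length), against regions called in all 4 at 0.880 (extended spans), and against regions called in 1 library of each fraction at 0.983 (merging across 100 bp), 0.979 (no EpCAM-positive peak within 500 bp) and 0.982 (extended spans). With 1 library left out they ran from 0.870 to 1.09, 1.01 to 1.24 and 0.878 to 1.11 in the same order of sets. The cause was not tested. The neighbour and non-coding alternatives, and the distance result with lists of equal length, were chosen after seeing the data. Nothing in the labels says that a replicate number pairs the libraries. With the number as a replicate block, the per-library differences beyond 50 kb had the same means, 1.21 percentage points for all intergenic peaks and 9.10 for regions called in 1 library alone (exact sign-flip p = 0.5 for both, the smallest that 2 pairs can give). The odds ratios compare sets of regions and have no such block. The weakest members rested on a pileup of 4.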
